A study of Homo sapiens with 4 samples.

Results

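The libraries described here are the pair from JR1, a human cell line of fusion-negative rhabdomyosarcoma, with the gene SKP2 knocked down (shSKP2) or not (shSCR). They were chosen by their labelled line and are 2 of the 4 libraries of the series, with 1 library in each group. The study also holds the same pair from RD, another fusion-negative rhabdomyosarcoma line. It describes both lines as carrying mutated p53. Both JR1 cultures were infected with a pLKO.1-puro lentivirus, kept in DMEM high-glucose medium with serum and selected with puromycin. In shSCR the vector carried a non-targeting hairpin, and in shSKP2 the single hairpin shSKP2.2. Uninfected JR1 cells and a second hairpin were not analysed here, and the time of RNA harvest is not given in the sources used here. The files listed 39323 genes in TPM (a transcript abundance unit), which are read counts divided by transcript length and scaled to a fixed total. A gene was called measured, or tested, where its mean over both JR1 libraries was at least 1 TPM, which left 12764 genes, of which 12671 were not short structural RNA genes.

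Rhabdomyosarcoma is a childhood soft tissue tumour whose cells carry the identity of muscle precursors but do not complete muscle differentiation. SKP2 is the F-box subunit of a cullin-RING ubiquitin ligase, in which SKP1 links it to the cullin CUL1 and the RING protein RBX1, and the small protein NEDD8 switches the cullin on. The ligase marks inhibitors of cyclin-dependent kinases, among them p27 (CDKN1B) and p57 (CDKN1C), for destruction, and is known for driving cells from G1 into S phase. Skeletal muscle precursors leave the cell cycle before MYOD and myogenin switch on the genes of the contractile apparatus.

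The targeted gene was checked first. SKP2, at chr5:36152067-36184319 of GRCh38 by the RefSeq annotation, was read at 46.5 TPM in the shSCR library and 2.72 TPM in the shSKP2 library. Its change was -3.67. A change here is the log2 ratio of shSKP2 to shSCR after 1 TPM was added to each value, so it understates the ratio for genes near 1 TPM. With 1 library in each group there was no replicate check, no error and no p-value for any change. A gene is said to have risen or fallen where its change reached 1 or -1, and the text gives plain values for the rest. TPM keeps no sequencing depth, so the counting precision behind each value is unknown. In a bulk RNA sample, fewer cells of a type and less RNA per cell cannot be told apart.

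Short structural RNA genes made up most of the TPM, although the labels give poly-A RNA. The 600 genes of this kind took 66.4% of the TPM in the shSCR library and 72.0% in the shSKP2 library. The 7SL RNA genes, which encode the RNA of the signal recognition particle, took 34.1% and 37.4%. The most abundant of them, RN7SL1 and RN7SL2, were read at 206815 and 134629 TPM with shSCR and at 216178 and 158120 TPM with shSKP2. RN7SK, whose RNA holds back a transcription elongation factor, took 20.4% and 25.4%. RPPH1 and RMRP, the RNAs of RNase P and RNase MRP, moved the other way, from 7.05% to 5.36% and from 2.33% to 1.84%. The larger structural share in the shSKP2 library leaves less of the fixed total for all other genes. The median change of all tested genes was -0.22 on the deposited scale. When the structural RNA genes were removed and the remaining TPM rescaled to the same total, it was 0.01. Counts and list medians are therefore given on both scales. Where 2 changes of a gene stand together the deposited scale comes first, and a lone value is on the deposited scale. Rescaling also multiplied every TPM, so the added 1 TPM weighs less on low genes there.

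**Figure D1:**
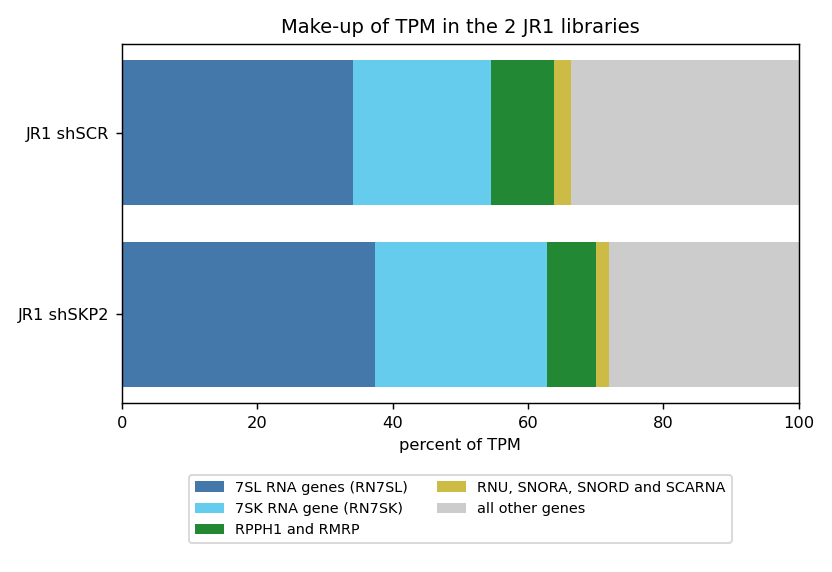
Share of all TPM, in percent, taken by classes of structural RNA genes and by all other genes in the 2 JR1 libraries, with 1 bar per library. The structural classes together fill 66.4% of the shSCR bar and 72.0% of the shSKP2 bar.

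On the deposited scale 244 of 12764 tested genes rose (1.91%) and 1187 fell (9.3%). Without counting structural RNA genes, 229 of 12671 rose (1.81%) and 1157 fell (9.13%). After rescaling, 557 of 12671 rose (4.4%) and 965 fell (7.62%). These shares of all tested genes are the reference for the counts of every list below. Rises were 17.1% of the called genes on the first scale and 36.6% on the second, so the balance of rises and falls depends on the structural RNA. On both scales 229 genes rose and 870 fell. The structural RNA genes themselves moved more often, with 15 of 93 higher (16.1%) and 30 of 93 lower (32.3%), most of them small nucleolar RNAs. Chromosome medians lay close together, with rescaled changes between -0.05 and 0.07 over 23 chromosomes, but the shares of called genes varied more. After rescaling the share lower ran from 2.27% on chromosome 13 to 11.8% on chromosome 6. Most of the 64 tested histone genes, described at the end, lie on chromosome 6. After rescaling 46 of the 64 fell, so histone genes make up part of that share. The share higher ran from 1.45% on chromosome 21 to 7.43% on chromosome 18. Long genes sat higher than short ones. When genes were ranked by length into 5 equal groups, the median rescaled change was 0.13 in the longest group and -0.07 in the shortest, and the part of gene length in the lists below was not tested.

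**Figure D2:**
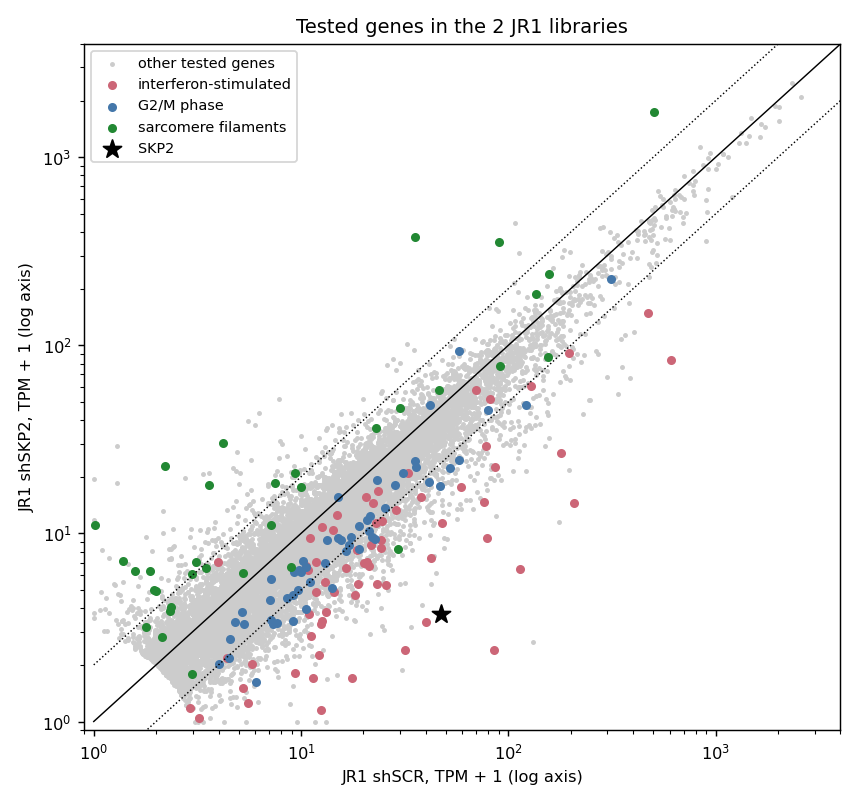
TPM + 1 of each tested gene without structural RNA genes in the shSCR library (x, log axis) and the shSKP2 library (y, log axis). The solid line marks equal values and the dotted lines a change of 1 and -1. Interferon-stimulated genes and SKP2 (-3.67) sit largely below the lower dotted line, most G2/M genes below the solid line, and sarcomere genes largely above it.

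Among the 20 largest rises were many muscle genes. MYL1, an essential light chain of fast skeletal myosin, went from 34.4 to 374 TPM (3.41, 3.70 rescaled). MYBPC1, the slow isoform of myosin-binding protein C, went from 0.01 to 10.0 TPM (3.45, 5.16 rescaled), and the M-band protein gene MYOM1 from 1.21 to 21.9 TPM (3.37, 4.11 rescaled). MYBPC1 and MYOM1 were near the lower end of the tested range in the control library, whereas MYL1 was already well expressed there. TNNC2, the calcium-binding subunit of fast troponin, rose from 3.21 to 29.1 TPM, and CKM, muscle creatine kinase, rose from 5.01 to 36.7 TPM. MEF2C, a transcription factor that works with MYOD, rose from 1.76 to 18.7 TPM, and SMYD1, a methyltransferase needed to build sarcomeres, rose from 4.55 to 38.5 TPM. These genes encode proteins of different steps, from transcription to contraction. Others on that list were CASQ2 (2.65, 3.96 rescaled), a calcium store protein, and LDB3 (2.55, 3.06 rescaled), a Z-disc protein. The small heat shock protein HSPB3 rose by 2.45, and KLHL31, an adaptor protein of muscle, by 2.42. HDAC9, a class IIa deacetylase that binds MEF2, rose from 1.17 to 12.2 TPM (2.60, 3.31 rescaled).

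Not every large rise was a muscle gene. WIPF3, of the WASP-interacting protein family that acts on actin, rose from 0.3 to 17.5 TPM (3.83, 5.07 rescaled). The gap junction gene GJA5 rose from 0.1 to 7.13 TPM, and SERPINI1, which encodes the protease inhibitor neuroserpin, rose from 5.24 to 42.7 TPM. C1orf105 rose from 6.86 to 51.1 TPM and ARPP21, a regulated phosphoprotein best known from neurons, from 2.37 to 19.6 TPM. SPRR2D, a cornified envelope gene of skin, had the largest rise on the deposited scale, 4.49, from 0.3 to 28.3 TPM. The spliceosomal RNA variants RNVU1-2A and RNVU1-3 were listed at 0 in the shSCR library, so no ratio is given for them. They belong to a family of near-identical copies between which reads can be split.

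The largest falls were led by genes of the antiviral and inflammatory response. CCL5, a chemokine that draws T cells, fell from 129.8 to 1.66 TPM (-5.62, -5.80 rescaled), the largest fall of all tested genes on both scales. OASL, an antiviral 2′-5′-oligoadenylate synthetase-like protein, fell from 84 to 1.41 TPM (-5.14, -5.38 rescaled). IFIT2 fell from 113 to 5.44 TPM, IFIT3 from 207 to 13.5 TPM and IFIT1 from 39.1 to 2.4 TPM, all of them genes of the RNA-binding proteins induced by interferon. In the control library these genes stood between 39.1 and 207 TPM, and in the knockdown library none was above 13.5 TPM. CCL2, a chemokine for monocytes, fell from 29.7 to 0.88 TPM (-4.03, -4.43 rescaled). IGFBP6, a secreted protein that binds insulin-like growth factors, fell from 175 to 10.5 TPM. Falls outside these groups included SARAF, a brake on store-operated calcium entry, from 196 to 20.8 TPM (-3.18, -2.96 rescaled). AEBP1, a secreted collagen-binding protein, fell from 37.2 to 3.15 TPM, LTBP2, a matrix protein of the latent TGF-beta binding family, from 24.2 to 2.06 TPM, and ERFE, the hormone erythroferrone, from 33 to 2.18 TPM. PLAAT4, an interferon- and retinoid-inducible phospholipase, fell by -3.07 on the log2 scale. CTAG1B, RNVU1-4 and RNA5-8SN4 were listed at 0 in the shSKP2 library and have near-identical copies, so no ratio is given.

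**Figure D3:**
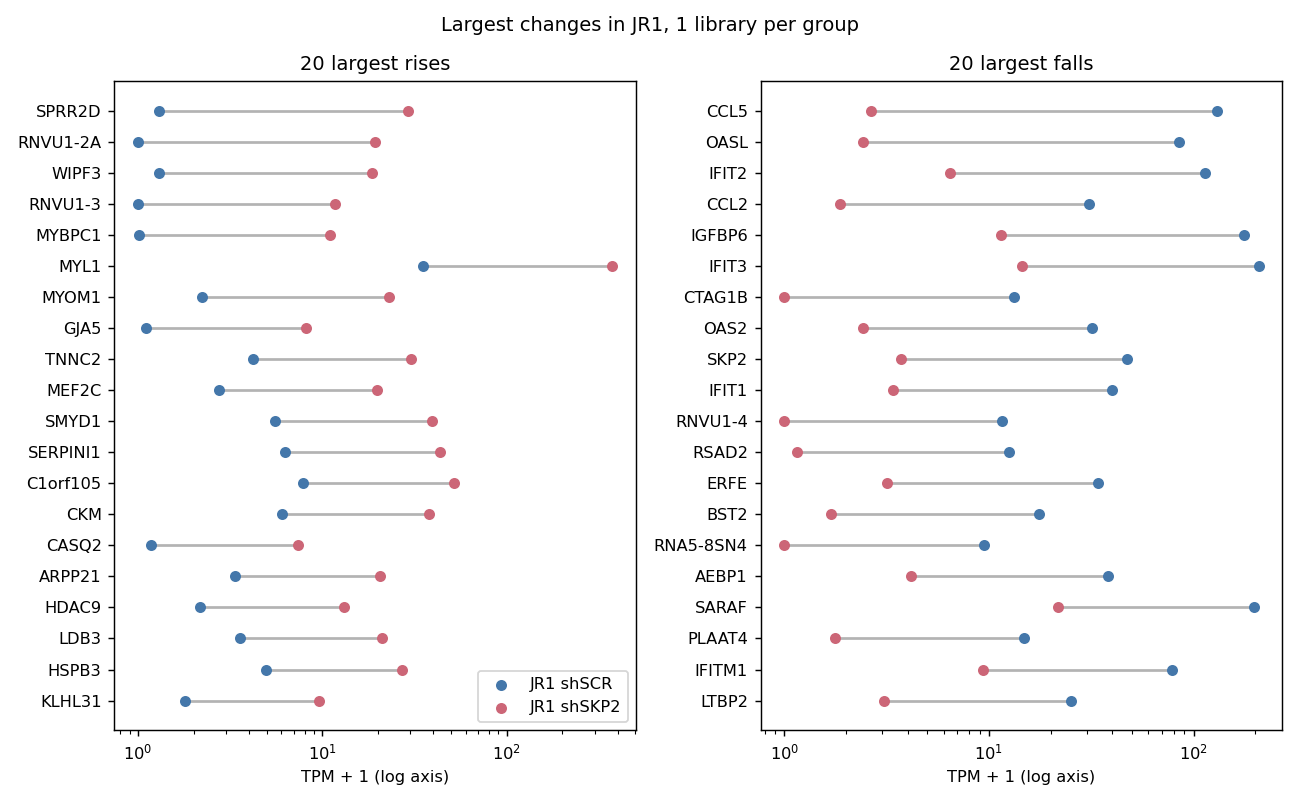
TPM + 1 (log axis) of the 20 tested genes with the largest rises and the 20 with the largest falls, deposited scale and without structural RNA genes, with 1 point per library. A point at 1 is a gene listed at 0. MYL1 and SARAF stand out by level, ending at 374 TPM and 20.8 TPM.

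Among the 21 genes of the ligase itself and of the NEDD8 pathway, all tested, 4 fell and 0 rose, beside 9.3% and 1.91% of all tested genes. SKP2 was one of the 4 and was the target. CDK2, the kinase that phosphorylates p27 and so prepares it for the ligase, fell from 20.7 to 5.86 TPM (-1.66, -1.51 rescaled). CKS1B, the cofactor that SKP2 needs to bind p27, fell from 120.0 to 47.1 TPM (-1.33, -1.08 rescaled), and its relative CKS2 from 56.5 to 23.4 TPM (-1.23), a fall that was just short of the limit after rescaling. The core subunits moved little. SKP1 was read at 26.5 TPM with shSCR and 27.8 TPM with shSKP2, CUL1 at 17.8 TPM with shSCR and 19.1 TPM with shSKP2, and RBX1 at 20.2 TPM with shSCR and 15.2 TPM with shSKP2. All of these stayed inside the limit on both scales. NEDD8 had a change of -0.73, its activating enzyme subunits NAE1 -0.64 and UBA3 0.12, and its conjugating enzyme UBE2M -0.02. The ubiquitin-conjugating enzymes CDC34 (0.38) and UBE2R2 (-0.06), the exchange factor CAND1 (-0.09) and COPS5 (-0.36), which removes NEDD8 from cullins, also stayed inside the limit. The same was so for the other F-box genes, FBXW7 (0.43), BTRC (-0.08), FBXL5 (-0.11) and FBXO5 (0.01). CCNA2, a cyclin partner of CDK2, had a change of -0.64, and FZR1, the activator of the complex that degrades SKP2 in G1, -0.64. The median of the 21 was -0.11, 0.14 rescaled.

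The ligase targets the proteins of only some cyclin-dependent kinase inhibitors, and the inhibitor genes were measured here only as RNA. The study reports binding of SKP2 to p27 and p57 in JR1 and RD, and detected none to p21. CDKN1A (p21) was read at 111 TPM with shSCR and 191 TPM with shSKP2, a change of 0.78 that reached the limit only after rescaling (1.05). CDKN1C (p57) was a low transcript, read at 2.17 TPM with shSCR and 3.57 TPM with shSKP2 (0.53, 0.88 rescaled). CDKN1B (p27) stood at 11.2 TPM with shSCR and 9.53 TPM with shSKP2 (-0.21, 0.04 rescaled). The p57 RNA thus lay higher and the p27 RNA close to its control value, both inside the limit. The INK4 genes, whose products bind CDK4 and CDK6, divided, with CDKN2D at 0.60, CDKN2A at -0.42, CDKN2B at -0.31 and CDKN2C at -0.64. CDKN3, a phosphatase of CDKs, had a change of -0.25. Of the pocket proteins, which hold E2F factors in check, RBL2 fell from 9.34 to 3.6 TPM (-1.17, -1.05 rescaled), while RB1 had a change of -0.42 and RBL1 of 0.17. In all 0 of the 11 rose and 1 fell on the deposited scale, and 1 rose and 1 fell after rescaling. The 14 tested of 16 other SKP2 substrates had a median of -0.49 (-0.30 rescaled), with 1 rise and 2 falls. FOXO1, a factor held back by growth factor signalling, rose from 0.58 to 2.56 TPM, CCND1, cyclin D1, fell from 107 to 29.4 TPM, and MYBL2, a cell cycle activator, from 37.2 to 16.2 TPM on the deposited scale only (-1.15, -0.92 rescaled). FOXM1 (-0.90), a mitotic transcription factor, and CDK9 (-0.76), a kinase of transcription elongation, were the next lowest. TOB1 (-0.15), NBN (-0.19) and MYC (-0.29) were the next highest.

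The cell cycle lists had medians below that of all genes, the lowest being that of G2 and mitosis. Of 54 G2/M genes, all tested, 19 fell and 0 rose on the deposited scale, beside 9.3% of all tested genes lower. After rescaling 13 fell and 0 rose, beside 7.62% lower. The median was -0.84 (-0.67 rescaled), against -0.22 (0.01) for all genes. HMMR, a spindle-associated protein, fell from 5.05 to 0.62 TPM (-1.90, -2.32 rescaled). CDK1, the kinase of mitotic entry, fell from 13 to 4.1 TPM, and the spindle checkpoint kinases TTK and BUB1 fell from 8.13 to 2.42 TPM and from 9.51 to 2.96 TPM. These members dropped to a few TPM, so their changes are the more understated by the added 1 TPM. JPT1 (0.69), CBX5 (0.20), CTCF (0.06) and the microtubule polymerase gene CKAP5 (-0.27) were the highest members. The 42 tested S phase genes had a median of -0.53 (-0.33 rescaled), with 4 falls and 0 rises on each scale. That count of falls was near the share of all tested genes, of which 9.3% fell (7.62% rescaled). The falls were the chromatin remodeller HELLS (-1.38), the licensing factor CDC6 (-1.34), the helicase subunit MCM5 (-1.29) and thymidylate synthase TYMS (-1.29). The highest members were E2F8 (0.49), POLR1B (0.11), CASP8AP2 (0.09) and the nuclease gene EXO1 (0.05). Of 23 genes of replication licensing 6 fell and 0 rose on each scale, with a median of -0.54 (-0.32 rescaled). Lists share members, so CDC6 and MCM5 were counted as falls in both the licensing and S phase lists. CKS1B and CKS2 were likewise counted in the ligase and G2/M lists, and CDK2 in the ligase and G1 and S phase lists. CCND1 was counted both among the other SKP2 substrates and in the G1 and S phase list. GINS1, of the replicative helicase, fell from 8.17 to 1.44 TPM, and ORC6, of the origin recognition complex, from 14.7 to 5 TPM, whereas ORC5 stood at 0.54, the kinase gene CDC7 at 0.03, GINS2 at -0.07 and ORC2 at -0.28. The 18 tested G1 and S phase cyclins, kinases and E2F factors had a median of -0.29 (-0.08 rescaled). CCND1 and CDK2 fell on both scales, and CCND2, cyclin D2, fell from 271 to 132 TPM on the deposited scale only (-1.03, -0.77 rescaled). E2F5, an E2F repressor, had a change of -0.73, while CDK6 (0.49), TFDP2 (0.51), E2F8 and CCND3 (0.12) were the highest.

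The letters of a cell cycle element could be looked up before these genes. The CHR, which binds complexes that repress mitotic genes in resting cells, was searched as TTTGAA on both strands, from 250 bases before to 50 bases after the annotated start (RefSeq, GRCh38.p14). One promoter, the first listed, was taken for each of 27305 genes, 9968 of them tested here. TTTGAA was present in 15.4% of all promoters, in 9.47% of those of tested genes and in 31 of 45 G2/M promoters (68.9%). The median change was -0.92 in G2/M genes with it and -0.76 in those without. CCAAT, the NF-Y box, stood in 35.7% of all promoters and in 31 of 45 of the G2/M ones. It was about as frequent in S phase promoters (23 of 33) and in those of cholesterol and fatty acid synthesis (18 of 26). The median change of G2/M genes was -0.87 with CCAAT and -0.89 without. The lines show the stretch before the start for the 4 G2/M genes with the largest falls that had the letters there, with TTTGAA or its reverse complement in capitals.
HMMR: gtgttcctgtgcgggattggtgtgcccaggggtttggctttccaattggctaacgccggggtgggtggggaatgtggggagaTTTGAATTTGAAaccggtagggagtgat
CDK1: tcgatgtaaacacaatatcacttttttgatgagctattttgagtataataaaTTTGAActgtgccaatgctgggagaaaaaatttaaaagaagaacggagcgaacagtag
CKS1B: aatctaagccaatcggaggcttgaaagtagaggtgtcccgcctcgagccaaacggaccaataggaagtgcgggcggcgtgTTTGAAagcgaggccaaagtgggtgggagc
ANLN: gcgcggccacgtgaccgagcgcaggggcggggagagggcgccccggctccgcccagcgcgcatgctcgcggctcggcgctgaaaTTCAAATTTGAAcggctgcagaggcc
These are chr5:163460522-163460631 on the plus strand for HMMR, chr10:60778118-60778227 on the plus strand for CDK1, chr1:154974571-154974680 on the plus strand for CKS1B and chr7:36389752-36389861 on the plus strand for ANLN. ANLN, the cytokinesis protein anillin, which was chosen after its values were seen, fell from 21.9 to 8.36 TPM. In HMMR the letters occur directly one after the other, and in ANLN a match on the opposite strand is followed by one on the printed strand.

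Regulators of the muscle programme differed by level and step. MYOD1, the master regulator, was read at 101 TPM with shSCR and 131 TPM with shSKP2 (0.38, 0.64 rescaled), and MYOG, which acts after it, at 54 TPM with shSCR and 107 TPM with shSKP2 (0.98, 1.25 rescaled), so MYOG reached the limit only after rescaling. MYF5 was listed at 0 in both libraries. In the list of 24 tested regulators 6 rose and 2 fell, with a median of 0.49 (0.76 rescaled). Beside MEF2C and SMYD1, the rises included KLHL41 from 106 to 448 TPM and KLHL40 from 1.31 to 6.27 TPM, adaptor proteins that stabilise the thin filament. PAX7, the factor of muscle stem cells, fell from 4.84 to 1.16 TPM (-1.43, -1.58 rescaled). MYMX, a small membrane protein of cell fusion, fell from 12.2 to 3.92 TPM. PAX3 (-0.25) and the E protein gene TCF4 (-0.01) stayed inside the limit. Of 23 tested genes that restrain myogenesis 6 fell, 1 rose and the others stayed inside the limit on each scale, with a median of -0.43 (-0.18 rescaled). ID3, which binds E proteins away from MYOD, fell from 248 to 50.1 TPM, and HES1, a Notch target repressor, from 17.4 to 3.14 TPM. MDFI, which holds MYOD in the cytoplasm, fell from 9.21 to 1.47 TPM, and HEYL, another Notch target, from 21.6 to 5.44 TPM. The 1 rise was HDAC9, and the next highest were SNAI2 at 0.72, HDAC5 at 0.68 and MSTN, myostatin, at 0.56.

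The filament lists of the sarcomere had the highest medians of all lists. Of 25 thick filament genes 16 were tested, and 9 of these rose and 1 fell (12 and 1 after rescaling), with a median of 1.10 (1.48 rescaled). A low gene could enter the test only if 1 library was high, so such a median describes the tested members and not the list. After MYBPC1, MYL1 and MYOM1 came MYH8, the perinatal myosin heavy chain, from 0.38 to 6.13 TPM (2.37, 3.43 rescaled). Chosen after their values were seen, the embryonic heavy chain MYH3 rose from 8.39 to 19.9 TPM, the adult fast chain MYH2 from 0.59 to 5.31 TPM and the regulatory light chain MYLPF from 88.7 to 355 TPM. The adult slow heavy chain MYH7 was read at 0.79 TPM in both libraries and was not tested. OBSL1, a cytoskeletal adaptor that is not limited to muscle, fell from 28.4 to 7.31 TPM. MYL6B (-0.83), MYLK2 (-0.74) and MYL4 (0.64) were the next lowest. Of 18 tested thin filament genes 7 rose and 0 fell (9 and 0 after rescaling), with a median of 0.72 (1.03 rescaled). ACTC1, cardiac actin, which is also the actin of early skeletal muscle, went from 504 to 1741 TPM and was the most abundant gene of the list in both libraries. TTN, titin, rose from 2.59 to 17.1 TPM and TNNT3, fast troponin T, from 0.87 to 5.31 TPM. XIRP1 (-0.43), TPM3 (-0.25), TNNC1 (0.22) and TPM1 (0.33) were the lowest tested members. The summed TPM of the thin filament list was 1016 with shSCR and 2480.3 with shSKP2.

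MYOD and its relatives bind E-boxes, and the form CAGCTG, which reads alike on both strands, was looked up in the same promoters. It was present in 17.7% of all promoters, in 17.2% of those of tested genes, in 6 of 10 thick filament promoters, 5 of 13 of the thin filament and 7 of 19 of excitation-contraction coupling. Within the thick filament list the median change was 1.17 with the letters and 2.87 without. The 4 genes of the muscle structure lists with the largest rises among those with the letters before the start are shown, with CAGCTG in capitals.
MYBPC1: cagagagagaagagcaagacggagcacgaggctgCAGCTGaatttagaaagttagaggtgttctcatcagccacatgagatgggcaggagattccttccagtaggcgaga
HRC: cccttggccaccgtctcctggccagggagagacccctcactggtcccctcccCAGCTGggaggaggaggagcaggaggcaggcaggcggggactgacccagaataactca
MYH2: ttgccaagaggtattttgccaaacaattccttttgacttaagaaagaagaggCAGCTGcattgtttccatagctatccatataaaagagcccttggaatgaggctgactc
MYOZ2: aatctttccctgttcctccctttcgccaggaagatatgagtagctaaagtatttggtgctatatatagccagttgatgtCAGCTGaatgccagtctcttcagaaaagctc
They lie at chr12:101594721-101594830 on the plus strand for MYBPC1, chr19:49155518-49155627 on the minus strand for HRC, chr17:10549659-10549768 on the minus strand for MYH2 and chr4:119135722-119135831 on the plus strand for MYOZ2.

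Of 38 genes of the apparatus that couples excitation to contraction 30 were tested, 6 rose and 0 fell (7 and 0 after rescaling), with a median of 0.45 (0.72 rescaled). CASQ2, the calcium buffer of the sarcoplasmic reticulum, rose from 0.18 to 6.39 TPM, and TRDN, triadin, which anchors it, from 0.47 to 5.84 TPM. CACNG1, a subunit of the muscle voltage-gated calcium channel, rose from 0.4 to 6.23 TPM, and HRC, another calcium-binding protein of the reticulum, from 3.84 to 20.5 TPM. All of these were below 5 TPM in the control library. JSRP1 (-0.80), CHRND (-0.60) and SRL (-0.58) were among the lowest tested members. In the Z-disc and costamere list 6 of 27 rose and 4 fell (7 and 4 after rescaling), with a median of 0.26 (0.53 rescaled). UNC45B, the myosin chaperone, rose from 4.05 to 19.96 TPM and MYOZ2, a calcineurin-binding Z-disc protein, from 4.03 to 17.4 TPM. CRYAB, a small heat shock protein, fell from 3.55 to 0.45 TPM, ANKRD1, a stretch-responsive titin partner, from 27.3 to 8.47 TPM, SYNM, synemin, from 10.8 to 3.97 TPM, and DMD, dystrophin, from 13.4 to 5.23 TPM. Of 12 tested genes of muscle energy metabolism only CKM rose and 0 fell, and the median was -0.15 (0.10 rescaled). MB, myoglobin, stood at 0.56, TRIM72 at 0.30 and PHKG1 at 0.26, while ENO3, the muscle enolase, was at -0.65, CKB at -0.46, ALDOA at -0.38 and ADSS1 at -0.27. Genes of myoblast fusion and adhesion went both ways, with 2 of 20 higher and 4 lower (3 and 3 after rescaling) and a median of -0.28 (-0.12 rescaled). NCAM1, an adhesion molecule, rose from 16.5 to 42.7 TPM. DYSF, the membrane repair protein dysferlin, stood at 0.74 and the fusogen MYMK at 0.61. The tetraspanin CD82 fell from 55.5 to 12.5 TPM, the laminin receptor subunit ITGA7 from 50.9 to 13.3 TPM and CD9 from 9.27 to 3.81 TPM, the last on the deposited scale only (-1.09, -0.97 rescaled).

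Interferon-stimulated genes fell as a group. Of 66 tested, 52 fell and 0 rose on the deposited scale, and 47 fell and 1 rose after rescaling, beside 9.3% and 7.62% of all genes lower. Their median was -1.56 (-1.48 rescaled), and their summed TPM went from 3367 to 919. Beyond OASL and the IFIT genes, OAS2, an enzyme that activates RNase L, fell from 30.9 to 1.41 TPM. RSAD2, the antiviral enzyme viperin, fell from 11.5 to 0.15 TPM, BST2, which tethers budding virus, from 16.6 to 0.7 TPM, and the membrane protein gene IFITM1 from 77.6 to 8.4 TPM. The fall reached abundant members: ISG15, a ubiquitin-like modifier chosen after its values were seen, went from 606 to 82.8 TPM (-2.86, -2.60 rescaled). GBP2, a guanylate-binding protein, was the highest member at 2.99 TPM with shSCR and 6.04 TPM with shSKP2 (0.82, 1.19 rescaled), and it was the 1 rise after rescaling. EIF2AK2, the RNA-activated kinase PKR, stood at -0.25, TRIM14 at -0.23 and SP110 at -0.22. Without uninfected cells, a level lowered with shSKP2 and a level raised with the shSCR vector cannot be told apart.

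The promoters of these genes hold the interferon response element, searched as GAAANNGAAA on both strands with N any base. It was present in 3.65% of all promoters, in 2.74% of those of tested genes and in 31 of 48 interferon-stimulated promoters (64.6%), and matches can overlap. The median change was -1.68 in the 31 genes with it and -1.24 in the others, and 24 of the 31 fell. It was also in 8 of 14 promoters of MHC class I presentation (57.1%). In the secretory list, of which 33 genes were tested, it was in 0 of the 22 promoters available. CCL5 and CCL2 of that list, and OASL, IFIT2 and OAS2, had no promoter available and were not searched. The 6 list members with the largest falls among those with the letters before the start are shown. Capitals mark each match, on the printed strand or as its reverse complement.
IFIT3: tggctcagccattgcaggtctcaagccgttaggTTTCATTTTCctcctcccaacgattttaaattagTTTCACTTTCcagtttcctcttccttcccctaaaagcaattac
IFIT1: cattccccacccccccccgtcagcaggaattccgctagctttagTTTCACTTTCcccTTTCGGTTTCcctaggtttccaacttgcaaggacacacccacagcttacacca
BST2: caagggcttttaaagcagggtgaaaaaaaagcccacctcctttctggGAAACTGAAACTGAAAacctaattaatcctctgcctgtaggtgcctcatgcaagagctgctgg
IFITM1: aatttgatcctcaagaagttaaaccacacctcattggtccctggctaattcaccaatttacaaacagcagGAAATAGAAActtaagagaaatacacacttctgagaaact
ISG15: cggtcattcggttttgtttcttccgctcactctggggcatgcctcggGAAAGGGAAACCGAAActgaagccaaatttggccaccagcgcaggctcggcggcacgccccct
IFI6: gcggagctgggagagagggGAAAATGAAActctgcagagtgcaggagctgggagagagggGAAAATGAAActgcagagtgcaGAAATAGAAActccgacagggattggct
The windows lie at chr10:89327808-89327917 on the plus strand for IFIT3, chr10:89392463-89392572 on the plus strand for IFIT1, chr19:17405698-17405807 on the minus strand for BST2, chr11:313930-314039 on the plus strand for IFITM1, chr1:1013337-1013446 on the plus strand for ISG15 and chr1:27672258-27672367 on the minus strand for IFI6. IFI6, a mitochondrial antiviral protein chosen by this rule, fell from 178 to 25.7 TPM. BST2 and ISG15 each hold 2 overlapping matches, which appear as 1 run of capitals. A further match of IFITM1 crosses the start and is not shown.

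**Figure D4:**
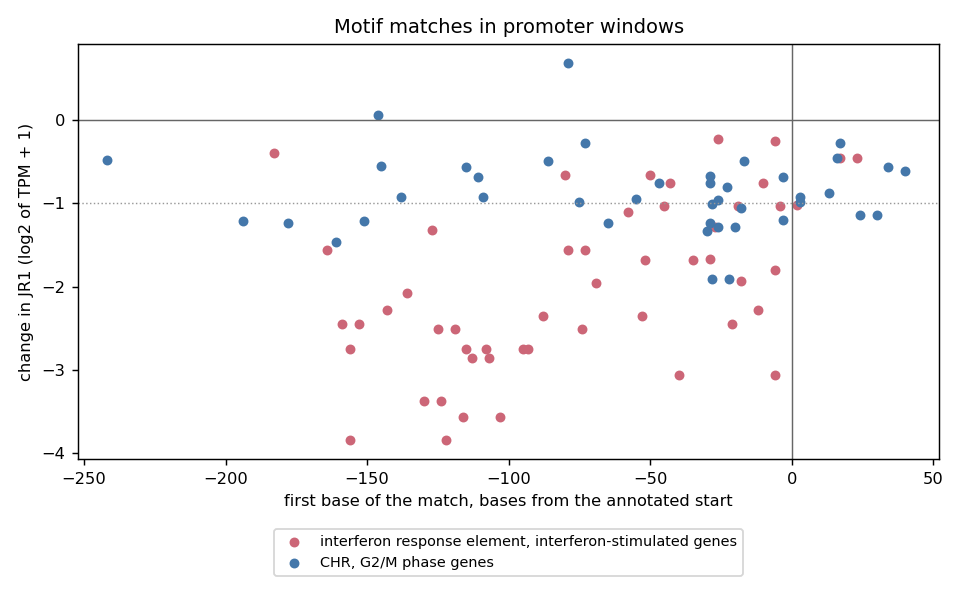
Position of each motif match (x, first base counted from the annotated start, negative before it) and the change of its gene (y, log2) for the interferon response element in interferon-stimulated genes and the CHR in G2/M genes. All of the interferon-stimulated genes with a match lie below 0, and the matches of the largest falls lie before the start.

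Genes that sense nucleic acids or carry interferon signals had a median closer to 0 than that of the interferon-stimulated list. The lists overlap, since IFIH1, DDX58 and EIF2AK2 belong to both. Of 18 tested ligands, receptors and sensors 4 fell and 0 rose on each scale, with a median of -0.52 (-0.28 rescaled). IFIH1, the RNA sensor MDA5, fell from 11.3 to 1.25 TPM, DDX58, the sensor RIG-I, from 11.7 to 2.44 TPM, and STING1, the adaptor for cytosolic DNA, from 24.9 to 8.24 TPM. IFNL1, a lambda interferon, was read at 2.35 TPM with shSCR and was listed at 0 with shSKP2. The receptor subunits IFNAR1 (0.30), IFNAR2 (0.20) and IFNGR1 (0.01) and the adaptor MAVS (0.01) were the highest. Of 18 tested genes of MHC class I presentation 9 fell and 0 rose (5 and 0 after rescaling), with a median of -0.98 (-0.81 rescaled). PSMB10 and PSMB8, subunits of the immunoproteasome, fell from 13 to 3.78 TPM and from 41.3 to 13.5 TPM, and its activator PSME1 from 92.1 to 36.7 TPM. TAPBP, tapasin, which helps load peptides, fell from 57.1 to 23.1 TPM. The highest members were PSME2 at -0.33, ERAP1 at -0.41, PDIA3 at -0.55 and TAP2 at -0.63.

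Chemokines, cytokines and other secreted factors also held many falls. Of 56 listed genes 33 were tested, and 18 fell and 0 rose (17 and 1 after rescaling), with a median of -1.04 (-1.04 rescaled). IL6, an inflammatory cytokine, fell from 8.18 to 0.55 TPM (-2.57, -3.09 rescaled), behind CCL5, CCL2 and IGFBP6. TIMP2, an inhibitor of matrix proteases, was the highest member at 80.1 TPM with shSCR and 157 TPM with shSKP2 and rose only on the rescaled scale (1.23). TGFB2 (0.59), IGFBP5 (0.58) and VEGFA (0.28) followed. Among 13 tested NF-kB subunits and feedback genes 6 fell and 0 rose (5 and 0 after rescaling), with a median of -0.99 (-0.78 rescaled). IER3, an immediate early gene, fell from 32 to 8.78 TPM, NFKBIA, the inhibitor that NF-kB itself induces, from 32.5 to 11.5 TPM, NFKBIZ from 26.2 to 9.18 TPM and TNFAIP2 from 4.77 to 1.43 TPM. The subunit genes RELA (-0.25), REL (-0.10) and NFKB1 (-0.30) and the feedback gene TNFAIP3 (-0.15) were the highest.

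Of 28 RAS-MAPK output genes 7 fell and 0 rose (6 and 1 after rescaling), beside 9.3% and 1.91% of all tested genes (7.62% and 4.4%). Their median was -0.39 (-0.19 rescaled). The falls include IER3, also counted in the NF-kB list, and CCND1, also counted in the substrate and G1 and S phase lists. Immediate early genes led, with FOSB from 42.8 to 6.62 TPM, FOS from 109.8 to 24.1 TPM and JUNB from 107 to 30.9 TPM, subunits of the AP-1 factor. DUSP4, a phosphatase that feeds back on the pathway, stood at 0.78 and passed the limit after rescaling (1.06). EPHA2 (0.64), ETV1 (0.42) and DUSP5 (0.35) were the next highest. Of 23 tested Notch and Hedgehog genes 8 fell and 0 rose (7 and 2 after rescaling), with a median of -0.89 (-0.64 rescaled). The receptor NOTCH3 fell from 84.3 to 18.1 TPM, and the Notch targets HES1, HES4 and HEYL fell by -2.15, -1.82 and -1.81. HES1 and HEYL were also counted as falls among the genes that restrain myogenesis. JAG2, a Notch ligand, stood at 22.6 TPM with shSCR and 42.8 TPM with shSKP2 (0.89, 1.17 rescaled) and the Hedgehog receptor PTCH1 at 5.78 TPM with shSCR and 10.1 TPM with shSKP2 (0.71, 1.02 rescaled). MAML1 (0.44) and RBPJ (0.33), partners of Notch in the nucleus, came next. The 23 tested YAP and TEAD targets held 5 falls and 0 rises (4 and 0 after rescaling), with a median of -0.40 (-0.15 rescaled). CCN1 and CCN2, secreted matricellular proteins, fell from 227 to 42.4 TPM and from 127 to 35.4 TPM, and NUAK2, a kinase, from 9.97 to 3.58 TPM. TGFB2, LATS2 (0.37), NT5E (0.24) and TEAD4 (0.19) were the highest.

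In the insulin-like growth factor axis 3 binding proteins fell, all of them already counted as falls in the secretory list. Of 14 tested genes 3 fell and 0 rose on each scale, beside 9.3% of all tested genes lower (7.62% rescaled). The median of the 14 was -0.03 (0.22 rescaled). IGFBP6 was followed by IGFBP2, which fell from 119 to 33.9 TPM, and IGFBP4 from 9.68 to 2.58 TPM. IGF2BP3, an RNA-binding protein, had a change of -0.68. IGFBP5 (0.58), the receptors INSR (0.49) and IGF1R (0.35) and the RNA-binding protein IGF2BP1 (0.34) were the highest, and IGF2 itself was among the most abundant transcripts, at 1401 TPM with shSCR and 1196 TPM with shSKP2. Of 15 tested receptor tyrosine kinases 1 rose and 2 fell (1 and 1 after rescaling), with a median of -0.22 (0.03 rescaled). ALK rose from 2.06 to 7.46 TPM, FGFR4, a receptor typical of rhabdomyosarcoma, fell from 46.9 to 17.3 TPM, and FGFR1 fell from 51.4 to 24.3 TPM on the deposited scale only (-1.05, -0.81 rescaled). DDR2 (-0.80), AXL (-0.71), EPHA2 (0.64) and ERBB3 (0.61) stayed inside the limit.

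For matrix genes and sterol enzymes the counts of falls depended on the scale. Of 36 tested genes of fibrillar and basement membrane matrix 20 fell and 0 rose, and 10 fell and 0 rose after rescaling, with a median of -1.04 (-0.78 rescaled). LAMA5, a laminin chain, fell from 44 to 5.16 TPM (-2.87, -2.76 rescaled), COL1A1, a chain of type I collagen, from 387 to 65.8 TPM (-2.54, -2.29 rescaled), COL15A1 from 25.3 to 6.21 TPM and COL6A2 from 126 to 42.9 TPM. The partner chain COL1A2 stayed at 5.24 TPM with shSCR and 4.63 TPM with shSKP2 (-0.15, 0.08 rescaled). COL19A1 (0.09), COL25A1 (-0.15) and LAMA2 (-0.37) were the other highest members. Of 32 tested genes of cholesterol and fatty acid synthesis 16 fell and 0 rose, and 10 fell and 0 rose after rescaling, with a median close to -1 (-0.81 rescaled). SCD, which desaturates fatty acids, fell from 245 to 50.1 TPM, the sterol carrier STARD4 from 18.5 to 4.48 TPM, and the sterol enzymes TM7SF2 and HSD17B7 from 7.41 to 1.54 TPM and from 15.9 to 4.24 TPM. The highest were INSIG1, the brake on the sterol-sensing factor SREBP, at -0.02, SREBF2, which encodes that factor, at -0.15, PMVK at -0.29 and LSS at -0.48.

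The study reports JR1 as p53-mutated, and p53 activity was not measured here. Of 25 tested p53 targets 1 rose and 4 fell (3 and 4 after rescaling), beside 1.91% and 9.3% of all tested genes (4.4% and 7.62%). Their median was -0.35 (-0.10 rescaled). SESN2, a stress-induced regulator of metabolism, rose from 14.5 to 34.2 TPM, while the cyclin-like gene CCNG1 fell from 23.9 to 4.8 TPM, TRIAP1 from 19.4 to 5.67 TPM, the repair factor XPC from 7.76 to 1.99 TPM and ferredoxin reductase FDXR from 1.91 to 0.33 TPM. BBC3, which encodes PUMA, was at 0.77 and TP53INP1 at 0.43. BBC3 and CDKN1A were the rises added by rescaling (1.13 and 1.05). Of 13 tested BCL2 family genes 1 rose and 3 fell (3 and 3 after rescaling), with a median of -0.32 (-0.07 rescaled). BCL2L11, the death-promoting BIM, rose from 14.3 to 33.7 TPM, and PMAIP1, which encodes NOXA, fell from 88.5 to 19.5 TPM. The death-promoting BID fell from 18.3 to 6.97 TPM, MCL1, which protects cells, from 117 to 48.4 TPM, and BCL2L1, which also protects them, stood at 47.1 TPM with shSCR and 82.5 TPM with shSKP2 (0.80, 1.07 rescaled). BMF (0.31) and BOK (-0.60) stayed inside the limit. The unfolded protein and integrated stress response had 2 rises and 2 falls among 27 (3 and 0 after rescaling) and a median of -0.14 (0.13 rescaled). ASNS, asparagine synthetase, rose from 13 to 36.5 TPM, and ATF3, a stress-induced factor, fell from 48.5 to 21.8 TPM on the deposited scale only (-1.12, -0.88 rescaled), as did SDF2L1 (-1.09, -0.89 rescaled). CHAC1 stood at 0.87, 1.20 rescaled, PHGDH at 0.57, SHMT2 at -0.90 and XBP1 at -0.89. FOXO factors and atrophy genes had 3 rises and 0 falls among 13 on each scale, with a median of 0.36 (0.69 rescaled). FBXO32 and TRIM63, the ubiquitin ligases of muscle atrophy, rose from 6.86 to 24 TPM and from 1.98 to 5.12 TPM. TXNIP stood at 0.64, and BCL6 at -0.72, FBXO30 at -0.30, CITED2 at -0.28 and IRS2 at -0.06 were the lowest. Autophagy and lysosome genes had 3 falls and 0 rises among 22 (1 and 0 after rescaling) and a median of -0.25 (-0.01 rescaled). WIPI1, an early autophagy protein, fell from 12.5 to 3.66 TPM on both scales (-1.54, -1.44 rescaled). CTSL (-1.02), which encodes a lysosomal protease, fell on the deposited scale only. ULK1 (0.36), ATG16L1 (0.27), GABARAP (0.21) and ATG7 (0.03), which act in autophagosome formation, were the highest.

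Glycolysis and hypoxia genes had 2 rises and 2 falls among 27 (4 and 1 after rescaling), with a median of -0.03 (0.23 rescaled). NDRG1 rose from 8.02 to 18.9 TPM and PDK1, a brake on pyruvate oxidation, from 5.02 to 11.5 TPM, while the phosphofructokinases PFKP and PFKL fell from 24.3 to 9.38 TPM and from 35.4 to 16.8 TPM, the latter on the deposited scale only (-1.04, -0.80 rescaled). The glucose transporter SLC2A1 stood at 0.85, 1.12 rescaled and the demethylase KDM3A at 0.83, 1.13 rescaled. LDHB, a lactate dehydrogenase subunit, was at -0.92 and PGK1, phosphoglycerate kinase, at -0.53. Polycomb genes had 0 rises and 1 fall among 26 (1 and 0 after rescaling), with a median of -0.09 (0.17 rescaled). The 1 fall was RBBP7, a histone chaperone, from 22.9 to 10.8 TPM (-1.02, -0.80 rescaled), and the 1 rise after rescaling was JARID2, a polycomb cofactor (0.86, 1.18 rescaled). PHC1 (-0.99), PCGF5 (-0.89) and PHF19 (-0.80) were the next lowest, and MTF2 (0.56), CBX2 (0.39) and RNF2 (0.30) the next highest. Large lists were read by gene symbol. Their counts stand beside 1.91% of all tested genes higher and 9.3% lower (4.4% and 7.62% after rescaling). The 81 tested cytosolic ribosomal protein genes had a median of -0.09 (0.18 rescaled) with 0 rises and 3 falls, which were RPL34 (-1.68), RPL27A (-1.49) and RPL36A (-1.48). RPL24 (-0.64) was next, and RPL22 (0.37), RPL11 (0.36) and RPL26L1 (0.25) were among the highest. The 78 mitochondrial ribosomal protein genes had -0.20 (0.05 rescaled) with 0 rises and 3 falls, MRPS28 (-1.08), MRPS17 (-1.05) and MRPL49 (-1.03), and after rescaling with 0 and 0. MRPS25 (-0.90) followed, against MRPL48 (0.58), MRPL10 (0.40), MRPS35 (0.35) and MRPS9 (0.28) at the top. The 78 nuclear subunits of oxidative phosphorylation had -0.24 (0.02 rescaled). COX7C, a cytochrome oxidase subunit, rose from 27.6 to 73.1 TPM, and ATP5MC1 (-1.97) and ATP5IF1 (-1.60) of the ATP synthase and SDHB (-1.17) of succinate dehydrogenase fell, SDHB on the deposited scale only (-0.93 rescaled). ATP5F1D (-0.78), NDUFA9 (0.45), NDUFS4 (0.31) and UQCR10 (0.25) stayed inside the limit. The 37 proteasome subunits had -0.38 (-0.13 rescaled) with 0 rises and 3 falls, near the share of all tested genes that fell. These falls were PSMB10, PSMB8 and PSMD14 (-1.44). PSMB9 (-0.90) was next, and PSMD8 (0.38), PSMD6 (0.27), PSMD12 (0.08) and PSMD5 (0.03) were the highest. For 392 zinc finger genes the median was -0.02 (0.23 rescaled), with 3 rises and 3 falls, and after rescaling 11 and 2. ZNF106 (1.42), ZNF608 (1.21) and ZNF578 (1.18) rose, followed by ZNF594 (0.90). ZNF668 (-1.11), ZNF689 (-1.09) and ZNF90 (-1.07) fell, followed by ZNF219 (-0.99). For 130 small nucleolar RNA hosts and long intergenic RNAs it was -0.22 (-0.01 rescaled), with 3 rises and 10 falls, and after rescaling 12 and 9. LINC01847 (2.11), LINC02154 (1.24) and LINC00526 (1.23) rose, and LINC01894 was just inside the limit. LINC02454 (-1.26), LINC01882 (-1.24), SNHG3 (-1.11) and LINC01116 (-1.09) were the largest falls. Mitochondrially encoded genes were not analysed here.

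The labelled cell type was checked against markers. Of 8 rhabdomyosarcoma markers 7 were tested. CHRNA1, an acetylcholine receptor subunit of muscle, was read at 284 TPM with shSCR and 425 TPM with shSKP2. CDH15, M-cadherin, was read at 59.9 TPM with shSCR and 78.1 TPM with shSKP2. DES, desmin, stood at 51.3 TPM with shSCR and 36 TPM with shSKP2, and VIM, vimentin, at 897 TPM with shSCR and 588 TPM with shSKP2. Both libraries therefore carry muscle lineage transcripts, with MYOD1 at 101 and 131 TPM. Genes typical of fusion-positive tumours were low apart from DKK3, since OLIG2 was listed at 0 in both, TFAP2B, NOS1, CDH3 and PIPOX were each below 0.50 TPM, and only DKK3 was tested (fell from 29.5 to 6.7 TPM). Blood and endothelial markers summed to 1.14 TPM with shSCR and 0.52 TPM with shSKP2 over 8 genes, of which 0 were tested. CD3E and LYZ were listed at 0, PTPRC, PECAM1, CDH5 and VWF were below 0.50 TPM in both libraries, and CD14 was the highest at 0.86 TPM with shSCR. Of the 14 markers of HEK293T, the line commonly used to make lentivirus, 6 were tested and 0 rose or fell (3 rose after rescaling: KRT8, EYA1 and PAX2). Their sum was 98.1 and 106 TPM, most of it KRT18. SALL1 (6.4 TPM with shSCR and 4.88 TPM with shSKP2) and NEFL (1.91 TPM with shSCR and 1.63 TPM with shSKP2) were the other tested ones, and SIM1, CA2, IRS4, LHX1, PAX8, CDH1, EPCAM and NEFM were each below 1 TPM. Of 8 epithelial markers 3 were tested, with CLDN4 lower (from 4.12 to 1.01 TPM), and CDH1, EPCAM, ESRP1, KRT5 and KRT19 each below 0.50 TPM. Fibroblast markers share COL1A1 and COL3A1 with the matrix list, so their fall is not a separate result. Their sum over 8 genes went from 1359 to 604 TPM, of which COL3A1 (904 TPM with shSCR and 509 TPM with shSKP2) and COL1A1 made up most. FBLN1 fell from 65.5 to 26.4 TPM, LUM was read at 3.46 TPM with shSCR and 2.39 TPM with shSKP2, and the part of these genes in the matrix result was not tested. The fibroblast genes DCN, DPT, MFAP5 and PDGFRA were each below 0.10 TPM in both libraries.

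The RD pair, described here only beside JR1 and with 1 library in each group, gave these values for the same genes. Structural RNA genes took 58.5% of the TPM with shSCR and 68.9% with shSKP2 in RD, a larger shift than in JR1. SKP2 was 92.8 TPM with shSCR and 7.4 TPM with shSKP2 (-3.48, -3.18 rescaled). Of the 12671 genes tested in JR1 without structural RNA genes, 0.868% rose and 7.18% fell in RD on the deposited scale, and 3.64% rose and 3.35% fell after rescaling. Of the 229 genes that rose in JR1 on both scales, 63 rose and 0 fell in RD on the deposited scale, and 142 rose and 0 fell after rescaling. Their median in RD was 0.67 (1.18 rescaled), beside -0.27 (0.10) for all genes. Of the 870 that fell in JR1, 501 fell and 5 rose in RD on the deposited scale, and 328 fell and 8 rose after rescaling. Below 0 in RD were 844 of these 870 (97.0%) against 75.1% of all genes, and after rescaling 812 (93.3%) against 39.8%. MEF2C went from 0.98 to 2.05 TPM in RD and passed the limit only after rescaling (0.62, 1.18 rescaled), as did MYBPC1, from 0 to 0.46 TPM (0.55, 1.31 rescaled). CASQ2, read at 0.11 and 0.4 TPM, stayed inside the limit on both scales (0.33, 0.85 rescaled). MYL1 rose from 7.1 to 119 TPM (3.89), past the limit on both scales, and CCL5 fell from 90.5 to 0.94 TPM (-5.56, -5.76 rescaled). The difference between the lines was not tested, since neither has a second library.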

How the data were processed

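Poly-A RNA libraries were made with a directional kit from JR1 and RD cultures and sequenced on an Illumina NovaSeq. Per the submitters' processing notes, the authors aligned reads to GRCh38 with STAR 2.7.9a and estimated expression with RSEM 1.3.2. The deposited values are TPM per gene symbol for each library, scaled to a fixed total, and nothing was pooled. TPM keeps no read number, so the depth and the precision of each library are unknown. A gene was tested where the mean of its 2 JR1 values reached 1 TPM. The change is log2 of (shSKP2 TPM + 1) over (shSCR TPM + 1), and a change of at least 1 in size was called. As TPM are not counts and there was 1 library per group, no statistical test was run. Each result was repeated after removal of 600 structural RNA symbols (RN7S, RNU, SNORA, SNORD, SCARNA, RMRP, RPPH1) and rescaling of the rest to the same total. Rescaling, centring, other pseudocounts, other filters and a ratio of 1.5 were tried as alternatives.

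The genes and lists were chosen with earlier results of these data known. The text names all genes of the ligase and inhibitor lists, the 20 largest rises and falls, the 4 highest and 4 lowest tested members of the other lists, the 5 most abundant structural genes or their classes, and the marker genes. Others are marked as chosen after their values were seen. A few genes that this rule names are not reported here. Symbols MYL11 and RIGI were matched through RefSeq synonyms. Of 12671 tested genes, 9968 matched a promoter in the RefSeq table of GRCh38.p14, where the first listed window of each gene was used. Mitochondrially encoded genes were not analysed here. The code was tested on simulated data and run with Python 3.11.15, numpy 2.4.6, pandas 2.3.3 and matplotlib 3.10.9.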

Additional observations from a re-analysis of the deposited data

Results flagged for a closer look

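RNA5-8SN4, a copy of the 5.8S ribosomal RNA gene, moved in opposite directions in the cell lines. In JR1 it was read at 8.51 TPM with shSCR and was listed at 0 with shSKP2, a change of -3.25 that rests on the added 1 TPM. In RD it was listed at 0 with shSCR and read at 238 TPM with shSKP2. With 1 library on each side the difference was not tested. Reads of ribosomal RNA can be split between near-identical copies. Over 20 ribosomal RNA genes the sum went from 44.3 to 17.7 TPM in JR1 and from 34.1 to 842 TPM in RD.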

How the results depend on the processing

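No paired analysis was possible because each group has 1 library. The SKP2 change stayed below -1 under each alternative run. The count of rises was 557 after structural RNA genes were removed, 555 when more small RNA genes were removed, 410 after centring on the median, 387 with a pseudocount of 0.1, 84 with one of 5, 149 at a mean of at least 5 TPM and 709 at a ratio of 1.5, against 244. It was 778 when the filter was also applied to rescaled TPM, an alternative chosen after seeing the data. The count of falls was 714 after centring, 477 with a pseudocount of 5 and 3035 at a ratio of 1.5, against 1187. The thin filament median passed the limit after removal of structural RNA genes (1.03), of more small RNA genes (1.03) and with the filter on rescaled TPM (1.12). The thick filament median was 0.71 with a pseudocount of 5 and 0.69 over all genes above 0 TPM. No change or median past the limit changed sign. Those close to 0 did: after removal of structural RNA genes 11 list medians and 22 named genes changed sign, all under 0.25 in size before, and after centring 10 and 18. Low genes depend on the pseudocount, and the unknown depth limits every gene near 1 TPM.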

Other observations

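Replication-dependent histone genes, a group chosen after values were seen, encode the core histones that package new DNA in S phase. Of 64 tested, 53 fell and 0 rose (46 and 0 after rescaling). Their median change was -1.52 (-1.28 rescaled), lower than that of the S phase list, and their sum went from 8707 to 3238 TPM. These RNAs mostly lack a poly-A tail, and the libraries were labelled as poly-A RNA. In RD the median was -1.60.

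The cornified envelope genes next to SPRR2D on chromosome 1 were low. SPRR2A, SPRR2C and SPRR2E were listed at 0 with shSCR and read at 1.63, 2.53 and 1.35 TPM with shSKP2, while SPRR2G was listed at 0 in both. In RD each of these and SPRR2D were listed at 0. The sequences of the family are alike, so reads may be shared between its members.

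Summing copies changed what single symbols showed. CTAG1A and CTAG1B, identical cancer-testis genes, summed to 25.9 TPM with shSCR and 12.9 TPM with shSKP2 (-0.95), although CTAG1B alone was listed at 0 with shSKP2. The 12 RNVU1 symbols summed to 941 and 756 TPM (-0.31), although RNVU1-2A, RNVU1-3 and RNVU1-4 were each listed at 0 in 1 library.

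Other genes with large changes, chosen after their values were seen, lie outside the lists. MEST, an imprinted gene, fell from 41.5 to 4.4 TPM, APOE, a lipid carrier, from 86.2 to 11.4 TPM, KLF4, a stemness-associated factor, from 47.7 to 7.41 TPM, and CHEK2, a DNA damage checkpoint kinase, from 22.4 to 3.77 TPM. NPNT, a matrix ligand of integrins, rose from 4.74 to 23.6 TPM, and APOBEC2, a muscle-enriched deaminase family member, from 1.42 to 9.52 TPM.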
